A study of Mus musculus with 44 samples.

Results

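The 10 genes Dcx, Sox11, Sox4, Igfbpl1, Draxin, Eomes, Dlx1, Dlx2, Cd24a and Neurod1 are markers of newborn neurons and their precursors, and they were followed here in the brains of aging mice on a control diet (CD) or a ketogenic diet (KD). They were taken by name. Their Ensembl identifiers were looked up among the 54446 of the count table, and all 10 were found. All 10 also passed the filter on low counts, which left 22079 genes for testing. The libraries came from whole brains of male C57BL/6 mice and form 4 groups. At 12 months of age, 5 mice were on the CD and 7 had received the KD for one week. Per the paper, mice ate standard chow until the experimental diets began at 12 months of age, so this CD group had been on the CD only briefly. At 26 months, 8 mice were on the CD and 8 had been given KD and CD in alternate weeks since the age of 12 months, called the cyclic KD. The brains of this last group were taken in a week of CD feeding, whereas the one-week group was taken on the KD, so the diets of both KD groups differ in length, in schedule and in the food of the last days. No group was genetically modified, and bulk RNA of a brain cannot tell fewer cells of a type from less RNA per cell.

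In the adult mouse brain, neurons are added mainly in the dentate gyrus of the hippocampus and in the olfactory bulb, which is supplied by neuroblasts that migrate from the walls of the lateral ventricles. Stem cells with astrocyte features give rise to dividing progenitors, which become neuroblasts and then young neurons, and both sites are known for a decline with age. The microtubule-associated protein Dcx, the transcription factors Sox4 and Sox11 and the surface protein Cd24a mark neuroblasts and young neurons. Eomes (Tbr2) and Neurod1 are transcription factors of the excitatory lineage of the dentate gyrus, and Dlx1 and Dlx2 are homeodomain factors of the inhibitory lineage that feeds the olfactory bulb. Most of these genes are also used by mature cells elsewhere: Neurod1 by granule cells of the cerebellum, Eomes by projection neurons of the olfactory bulb, Dlx1 and Dlx2 by cortical interneurons, Cd24a by ciliated ependymal cells.

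The upstream bases of 4 of the genes are shown because the results turn on these genes. Sox4 was taken for a lower level at 26 months that did not pass the test, and Neurod1 for its spread with cerebellar tissue. Eomes was taken for its wide spread within every group, and Dlx2 for its common course with its neighbour Dlx1. The bases were taken from RefSeq on GRCm38.p6, in which 8 of the 10 genes had a promoter entry, and end before the first annotated base of the gene. The Sox4 stretch is chr13:28953714-28953949 (236 bases), that of Neurod1 chr2:79456752-79456886 (135 bases), and that of Dlx2 chr2:71546755-71547004 (250 bases), all 3 on the minus strand. The Eomes stretch is chr9:118477939-118478188 (250 bases) on the plus strand. Capitals mark E-boxes, the letters CANNTG, which basic helix-loop-helix factors such as Neurod1 bind and which read the same on both strands.
Sox4: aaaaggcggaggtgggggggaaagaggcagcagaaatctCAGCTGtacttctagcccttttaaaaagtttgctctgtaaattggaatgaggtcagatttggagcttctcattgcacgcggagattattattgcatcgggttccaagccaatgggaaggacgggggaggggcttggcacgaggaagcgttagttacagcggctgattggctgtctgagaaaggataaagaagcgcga
Neurod1: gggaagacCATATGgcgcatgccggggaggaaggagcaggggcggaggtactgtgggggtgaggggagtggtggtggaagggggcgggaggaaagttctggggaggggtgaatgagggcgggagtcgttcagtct
Eomes: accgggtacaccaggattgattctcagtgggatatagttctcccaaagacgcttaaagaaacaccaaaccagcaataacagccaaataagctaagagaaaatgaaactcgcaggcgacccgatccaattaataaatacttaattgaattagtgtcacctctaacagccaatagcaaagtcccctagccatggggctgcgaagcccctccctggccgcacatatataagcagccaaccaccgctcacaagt
Dlx2: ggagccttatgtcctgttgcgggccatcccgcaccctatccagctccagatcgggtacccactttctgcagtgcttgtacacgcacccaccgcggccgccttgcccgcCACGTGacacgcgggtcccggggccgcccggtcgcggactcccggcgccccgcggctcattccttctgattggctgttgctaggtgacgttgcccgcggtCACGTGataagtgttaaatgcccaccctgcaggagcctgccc

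Sox4 held 1 E-box (CAGCTG), Neurod1 1 (CATATG), Dlx2 2 (both CACGTG) and Eomes 0. Windows of the same length and place held an E-box in 64.3% of 32851 promoters at the length used for Sox4, 45.6% at that of Neurod1 and 66.2% at that of Eomes and Dlx2. The homeodomain letters TAATTA, which are their own reverse complement, and the Sox letters ACAAAG or CTTTGT were found 0 times in each of the 4 stretches. Of all promoters, 2.93% to 4.84% held TAATTA and 9.51% to 16.5% held the Sox letters in these windows.

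The brain libraries held 7447742 to 12744415 counts (median 10810699). They fell into 2 sets by Gabra6, a receptor subunit of cerebellar granule cells. Gabra6 stood at 0.0903 to 8.97 CPM (counts relative to the library size, scaled by TMM) in 13 libraries and at 59.3 to 312 CPM in the other 15, with no library between. The 13 granule cell marker genes summed to 182 to 391 CPM in the first set and 858 to 3845 CPM in the second, so 13 libraries of what the study describes as whole brain held little cerebellar RNA. The set low in Gabra6 took 2 of 5 brains at 12 months on CD, 3 of 7 on the one-week KD, and 4 of 8 in each group at 26 months. A second difference ran with age: counts of Gm10800, a predicted gene, made up 0.000462% to 0.0017% of a library at 12 months and 0.0347% to 1.22% at 26 months, with no overlap. Genes of sensory receptors, 1789 in all, which brain tissue hardly uses, summed to 174 to 229 CPM at 12 months and 209 to 1306 CPM at 26 months. As Gm10800 did not overlap between the ages, age and this difference between libraries cannot be fully told apart for any gene, least of all for one near 0. The labels give no batch or day.

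Levels between the 10 genes were compared as CPM per kb of exon over all 28 brains, because the genes differ in length. Neurod1 stood highest at 33.2 ± 31.2 CPM per kb (SD, n = 28) and was also the gene with one of the widest ranges, 3.35 to 107 CPM per kb. Dcx followed at 5.45 ± 1.48 and Sox11 at 4.95 ± 1.2 CPM per kb. Cd24a stood at 3.75 ± 1.82 and Dlx1 at 3.26 ± 1.29 CPM per kb, and Sox4 and Dlx2 both at 1.43, with SDs of 0.29 and 0.692. Eomes (0.802 ± 0.855), Igfbpl1 (0.253 ± 0.184) and Draxin (0.133 ± 0.0778 CPM per kb) closed the order. Most neighbours in this order were within their spread. Neurod1 was above Dcx in only 20 of 28 libraries. Sox4 was above Dlx2 in 15 of 28 libraries, Cd24a above Dlx1 in 17, and Dcx above Sox11 in 20, whereas Dlx1 was above Sox4 in 26. Igfbpl1, a secreted insulin-like growth factor binding protein of young neurons, had 0 to 26 counts a library and Draxin, a secreted axon guidance cue, 0 to 16. Igfbpl1 was under 10 counts in 17 libraries and Draxin in 21, so a difference in either was hard to detect at this depth. Sox4 had 45 to 116 counts, and Dcx 264 to 1165.

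**Figure D1:**
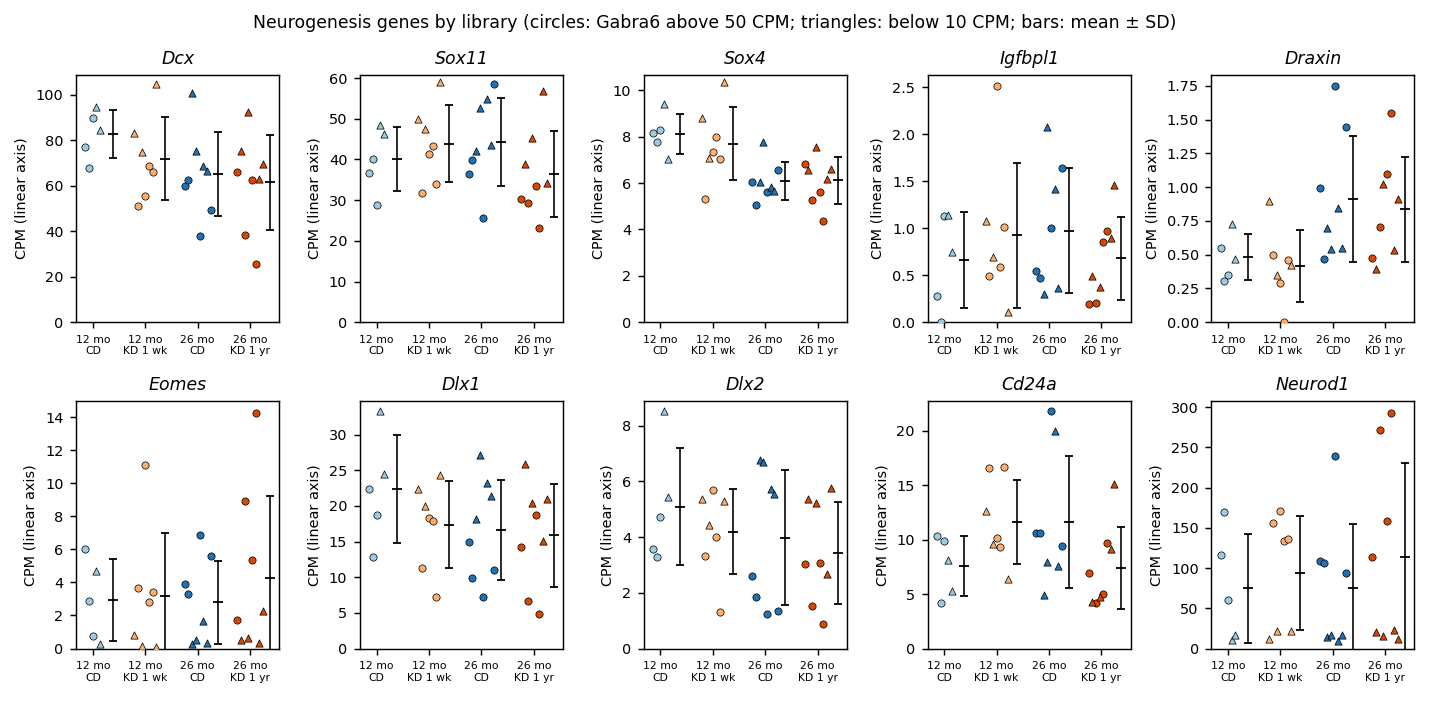
Each panel gives the CPM (linear axis from 0) of 1 gene in the 28 brain libraries by group, with bars for the mean ± SD; circles are the 15 libraries high in Gabra6 and triangles the 13 low in it. In the Sox4 panel 7 of the 8 CD brains of 26 months lie below all 5 CD brains of 12 months, and in the Neurod1 panel every circle lies above every triangle.

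Whether age lowers these genes on the control diet was asked by comparing 26-month with 12-month CD brains. The older mice had also been on the CD far longer, so age and time on the CD change together here. Sox4 was the member with the smallest p and stood at 0.747 times its level of 12 months in the fit, but it did not pass the threshold. The other 9 genes had unadjusted p-values of 0.0519 or more, with 4 of them below and 5 above 0. No member was called (0 of 10) where 1.26% of the 22079 genes were, by the quasi-likelihood test of edgeR at a Benjamini-Hochberg adjusted p under 0.05. Of the members 1 had an unadjusted p under 0.05, against 11.8% of all genes. The median log2 fold change of the 10 genes was -0.04, against -0.002 over all genes.

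Sox4 (ENSMUSG00000076431, chr13:28948919-28953713, GRCm38, minus strand, a single exon) encodes a transcription factor that promotes the expression of neuronal genes in newborn neurons. In the 5 CD brains of 12 months it stood at 8.14, 7.77, 8.29, 9.41 and 7.03 CPM. In the 8 CD brains of 26 months the lowest was 5.06, the median 5.94 and the highest 7.77 CPM, that highest value being in replicate 4. Of the 8 older brains 7 lay below the lowest younger one, and the groups overlapped only through replicate 4. The log2 fold change was -0.42 (SE 0.131), with an unadjusted p = 0.00346 and an adjusted p = 0.124 in edgeR. In limma with quality weights for the samples the value was -0.43 and the adjusted p = 0.0489, and with the cerebellar granule score as a covariate in edgeR, a fit added after seeing the data, it was -0.44 with an adjusted p = 0.0275. Over all 17 alternatives the value ran from -0.47 to -0.33, and these 2 were the only ones past the threshold. Within the libraries high in Gabra6 the log2 fold change was -0.47 (SE 0.159) and within those low in it -0.38 (SE 0.187), both by edgeR. Of the 50-base words of the Sox4 exon, 54.1% also lie in the antisense gene Gm26735, which had 0 or 1 counts in every brain.

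The aged KD brains gave the same direction against the one-week KD brains. Sox4 had a lowest value of 5.3, a median of 7.33 and a highest of 10.4 CPM in the 7 one-week KD brains. In the 8 one-year KD brains these were 4.36, 6.37 and 7.55 CPM, and 2 of the 8 lay below the lowest one-week brain. The log2 fold change was -0.33 (SE 0.121, unadjusted p = 0.0117, adjusted p = 0.324 in edgeR). This comparison shares no library with the one on CD. Within it, age changes together with the length and schedule of the KD and with the food of the last days. Here too 0 of 10 members were called, against 0.743% of all genes (0.562% higher and 0.181% lower), and 3 had an unadjusted p under 0.05 against 8.75% of all genes. Besides Sox4 these were Draxin and Cd24a. The direction of Cd24a was not the same in both comparisons of age. Its log2 fold change was -0.65 on the KDs (SE 0.308, adjusted p = 0.548) and 0.61 on CD (SE 0.345, adjusted p = 0.536), both by edgeR. The median of the 10 genes was -0.24, against 0.004 over all genes.

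**Figure D2:**
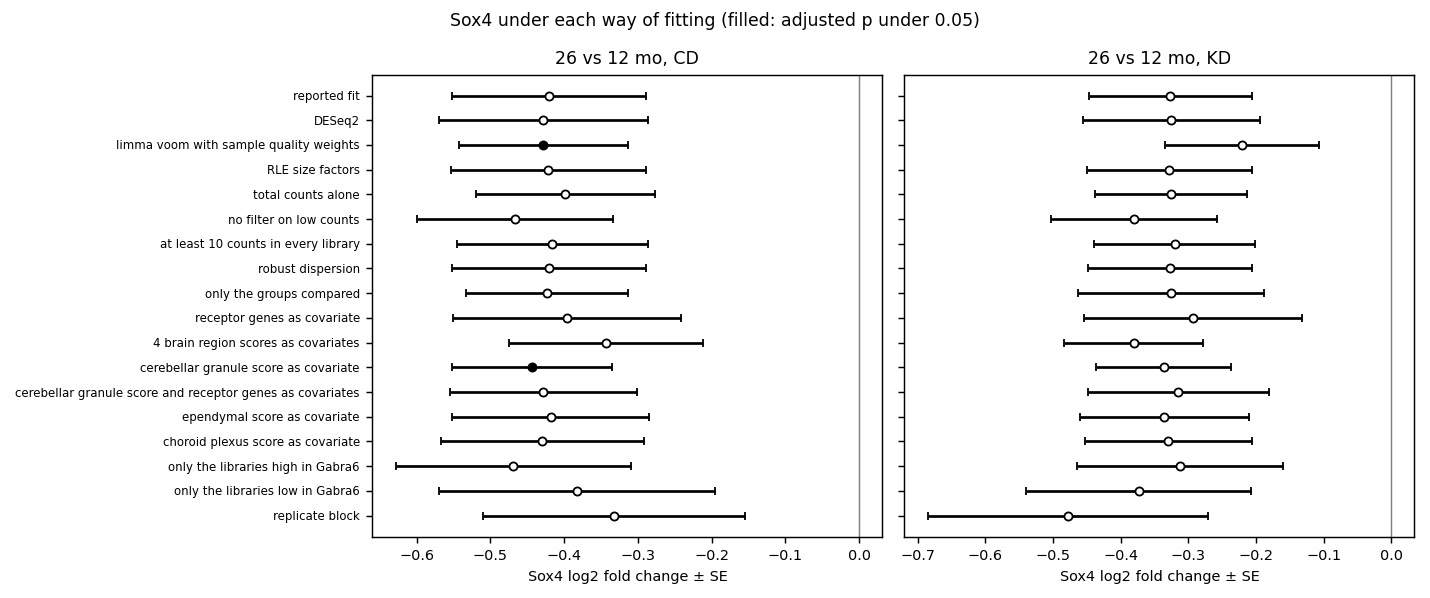
Each row is 1 way of fitting, with the log2 fold change of Sox4 (x axis) and its SE, for 26 against 12 months on CD (left) and on the KDs (right); filled points passed an adjusted p of 0.05. All values lie below 0, and 2 on the left are filled.

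Markers of other cell types moved with age in the same libraries. Of all genes, 1% were called higher and 0.258% lower on CD, and 0.562% and 0.181% on the KDs. Of 12 meningeal fibroblast genes, 8 were lower at 26 months on CD and 0 higher, and 5 were lower on the KDs. Their summed level was 358 to 651 CPM at 12 months on CD and 165 to 396 CPM at 26 months. Of 12 microglial genes, 3 were higher on CD and 4 on the KDs, among them the complement gene C1qa at 19.9 ± 2.2 CPM (SD, n = 5) and 34.8 ± 3.75 CPM (SD, n = 8) on CD. Of 14 genes of oligodendrocyte progenitors, another cell type that uses Sox4 and Sox11, 1 was lower on CD (Bmp4) and 0 higher, while 10 of the 14 had a value above 0 and the median was 0.19. Enpp6, with the next smallest p of this list, stood at 0.53 (SE 0.175, adjusted p = 0.151 in edgeR). Their summed level was 622 to 832 CPM at 12 months and 608 to 878 CPM at 26 months on CD. Of 8 tested blood genes, 8 had a value above 0 on CD (median 1.09) and 0 were called, and on the KDs 0 of the 8 lay above 0 (median -0.35). Of 16 tested hindbrain genes, 13 had a value above 0 on CD (median 0.59) and 1 was called, the serotonin synthesis gene Tph2 at 3.39 (SE 0.874, adjusted p = 0.0486 in edgeR), whereas 1 lay above 0 on the KDs (median -1.59). Of 14 choroid plexus genes, 1 had a value above 0 on CD (median -0.52) and 1 on the KDs (median -0.50). Of 12 striatal genes, 12 lay above 0 on CD (median 0.62) and 11 on the KDs (median 0.30). In both of these lists 0 genes were called. The part of these cell types and regions in the Sox4 difference was not tested.

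Like Sox4, the genes Dcx, Sox11 and Igfbpl1 showed no change with age that passed the test in the reported fit. Dcx (chrX:143855842-143933311, minus strand), the classical marker of migrating neuroblasts, stood at 77.2, 67.8, 89.7, 94.5 and 84.6 CPM in the 12-month CD brains. At 26 months on CD the lowest was 38, the median 64.4 and the highest 101 CPM. Of the 8 older brains 5 were below the lowest younger one and 1 was above the highest, and the log2 fold change was -0.35 (SE 0.222, with an adjusted p = 0.611 in edgeR). Sox11 (chr12:27334264-27342574, minus strand) is the close relative of Sox4 and has a single exon as well. It stood at 36.6, 40.2, 28.8, 48.4 and 46.3 CPM at 12 months and between 25.6 and 58.5 CPM (median 42.8) at 26 months on CD. Its log2 fold change was 0.14 (SE 0.192, interval -0.25 to 0.54, 95% confidence) on CD and -0.27 (SE 0.174) on the KDs. Igfbpl1 (chr4:45809468-45826923, minus strand) had a log2 fold change of 0.51 (SE 0.59) on CD, at 0 to 14 counts in the younger and 3 to 23 in the older brains.

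Draxin (chr4:148098437-148130698, minus strand) was the member with the largest positive log2 fold change, 0.85 on CD (SE 0.42, adjusted p = 0.427) and 0.96 on the KDs (SE 0.392, adjusted p = 0.412). It had 3 to 9 counts in the 12-month and 6 to 15 in the 26-month CD brains. In the KD brains it had 0 to 10 and 4 to 16 counts. These are the lowest counts of the set. With the receptor genes as a covariate the log2 fold change was 0.26 (SE 0.408) on CD and 0.13 (SE 0.418) on the KDs. Within the libraries low in Gabra6 it was 0.11 on CD, and within those high in it 1.46. In the 26-month livers, a tissue that does not form neurons, Draxin had 8 to 35 counts in the 6 livers high in Gm10800 and 0 to 14 in the other 10.

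The 4 transcription factors of the excitatory and inhibitory lineages showed no change with age that passed the test, and their ranges overlapped between the ages. Neurod1 (chr2:79452521-79456751, minus strand) stood at 117, 170, 59.8, 10.9 and 16.5 CPM in the 12-month CD brains and between 9.13 and 239 CPM (median 55.6) at 26 months on CD. Its log2 fold change was 0.01 with an SE of 0.872, so that an interval (95%) of -1.77 to 1.80 remained. Eomes (chr9:118478212-118486132, plus strand) stood at 6.04, 2.86, 0.786, 4.7 and 0.281 CPM at 12 months and between 0.298 and 6.86 CPM (median 2.48) at 26 months on CD, with a log2 fold change of -0.09 (SE 0.876). Dlx1 (chr2:71528113-71533981, plus strand) and Dlx2 (chr2:71543408-71546754, minus strand) are convergent neighbours on chromosome 2. Dlx1 stood at 22.3, 12.8, 18.8, 33.3 and 24.5 CPM at 12 months and between 7.23 and 27.1 CPM (median 16.6) at 26 months on CD. Dlx2 stood at 3.57, 3.27, 4.71, 8.52 and 5.44 CPM at 12 months and between 1.25 and 6.76 CPM (median 4.09) at 26 months. Their log2 fold changes were -0.42 (SE 0.338) and -0.36 (SE 0.412), and neither passed the test.

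**Figure D3:**
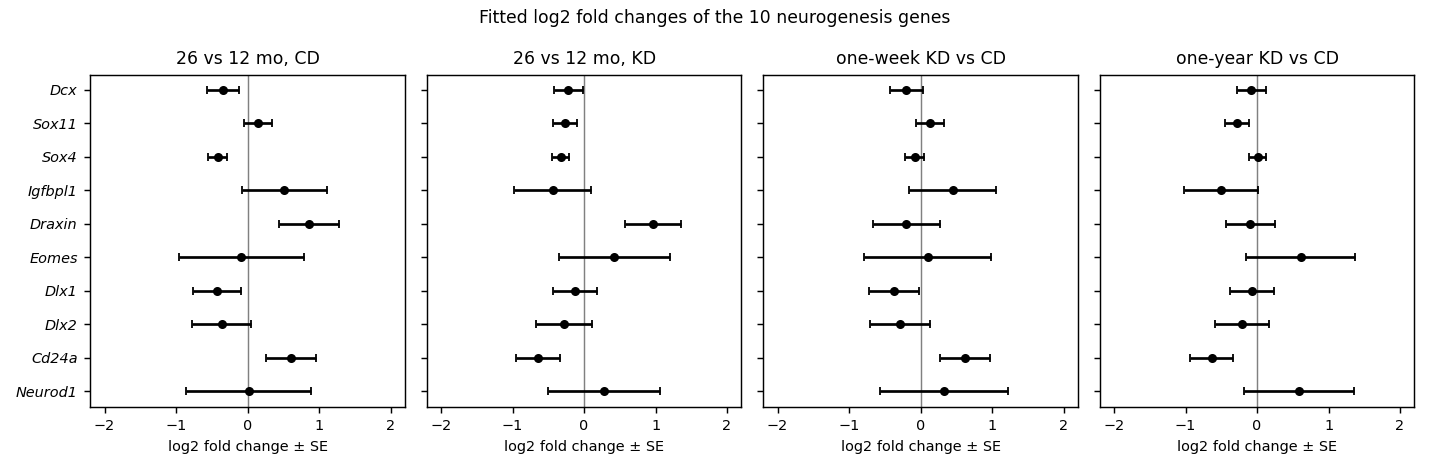
Each panel is 1 comparison, with the fitted log2 fold change (x axis) and its SE for each of the 10 genes (rows). Eomes, Neurod1 and Igfbpl1 have the widest bars, Sox4 and Sox11 the narrowest, and no gene passed the adjusted threshold in any panel.

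The levels of these factors were also set out by the 2 sets of libraries. Neurod1 stood at 59.8 to 293 CPM in the 15 libraries high in Gabra6 and at 9.13 to 23.2 CPM in the 13 low in it, without overlap. Within the high set Neurod1 correlated with the score of the granule cell markers after subtraction of group means (Pearson r = 0.96, adjusted p = 0.0162, Spearman rho = 0.97, adjusted p = 0.0324, permutation tests with 100000 resamples within groups, adjusted over 120 relations, n = 15). Without the 2 libraries farthest from the median score r was 0.94. Within the low set r was 0.07 (rho = 0.26, n = 13). Both sets held libraries of all 4 groups. Eomes stood at 0.786 to 14.2 CPM (median 3.88) in the high set and at 0.106 to 4.7 CPM (median 0.489) in the low set, with overlap. Its correlation with the granule score did not pass (r = 0.67, adjusted p = 0.147, rho = 0.65, adjusted p = 0.154, permutation tests, n = 15), r without the 2 farthest libraries was 0.50, and in the low set r was 0.02. The 12 olfactory bulb markers also differed between the sets, with a median sum of 60.6 CPM in the high set (32 to 81.8) and 24.1 CPM in the low set (15.6 to 67.5). Eomes correlated with their score at r = 0.61 in the high set (adjusted p = 0.216) and 0.63 in the low set (adjusted p = 0.39), by the same permutation tests. Dlx1 was on the opposite side, at 4.84 to 22.3 CPM in the high set and 15.2 to 33.3 CPM in the low set, and Dlx2 likewise at 0.872 to 5.69 and 2.69 to 8.52 CPM. In the high set Dlx1 correlated with the interneuron marker score (r = 0.90, adjusted p = 0.0162, permutation tests). Its rho of 0.89 did not pass (adjusted p = 0.115), nor did r = 0.73 in the low set (adjusted p = 0.147). Striatal markers had median sums of 198 CPM in the high and 669 CPM in the low set. For hindbrain markers these were 105 and 5.66 CPM. Dcx ranged from 25.6 to 89.7 CPM in the high set and from 63 to 105 CPM in the low set. With the granule score as a covariate the SE of Neurod1 fell from 0.872 to 0.267 for age on CD, and its log2 fold change was 0.06.

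**Figure D4:**
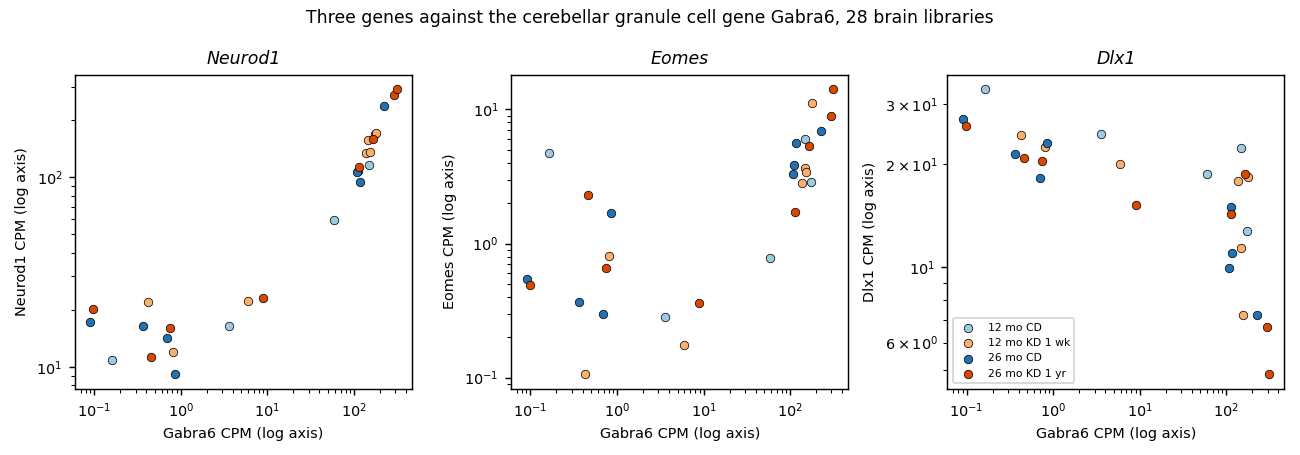
The CPM of Neurod1, Eomes and Dlx1 (y axes) is plotted against that of Gabra6 (x axes), all on log axes, for the 28 brains, coloured by group. Neurod1 is low in the 13 libraries with Gabra6 under 10 CPM and higher in the other 15, while Dlx1 is mostly lower in those, and each side holds libraries of all 4 groups.

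The one-week KD was compared with the CD at 12 months to ask what the first days of the diet do. No member was called (0 of 10), against 0.00453% of all genes, and 0 had an unadjusted p under 0.05, against 2.65% of all genes. The median was 0.01, against -0.001 over all genes. Cd24a (chr10:43578284-43584265, plus strand), a small sugar-bearing protein on the surface of neuroblasts and ependymal cells, had the largest value. It stood at 10.3, 4.19, 9.86, 8.11 and 5.25 CPM on CD and at 6.35 (lowest), 10.1 (median) and 16.7 CPM (highest) on the one-week KD. Of the 7 KD brains 3 were above every CD brain, and the log2 fold change was 0.62 (SE 0.353, unadjusted p = 0.0903, adjusted p = 1 in edgeR). The other 9 genes ran from -0.37 (Dlx1, SE 0.348) to 0.45 (Igfbpl1, SE 0.606). For Dcx the log2 fold change was -0.20 (SE 0.229), with an interval (95%) of -0.67 to 0.27, and for Sox4 -0.08 (SE 0.134), with one of -0.36 to 0.19.

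The one-year cyclic KD was compared with the CD at 26 months to ask whether the long diet changes the old brain. Here 0 of 10 members were called, against 0% of all genes, and 1 had an unadjusted p under 0.05 (Cd24a), against 4.52% of all genes. The median was -0.09, against -0.003 over all genes. Cd24a stood between 4.87 and 21.8 CPM (median 9.98) on CD and between 4.15 and 15.1 CPM (median 5.96) on the KD. Of the 8 KD brains 7 lay below the median of the CD brains and 3 below the lowest of them. The log2 fold change was -0.64 (SE 0.3, unadjusted p = 0.0429, adjusted p = 0.989 in edgeR). Of 13 tested ependymal genes, 1 had a value above 0 in the same comparison, with a median of -0.44, 5 at an unadjusted p under 0.05 and 0 called. Their summed level was 70.8 to 156 CPM on CD and 47.9 to 167.9 CPM on the KD. After subtraction of group means Cd24a and the ependymal score had r = 0.62 in the 15 libraries high in Gabra6 and 0.78 in the 13 low in it. Neither correlation passed (adjusted p = 0.209 and 0.136, permutation tests adjusted over 120 relations). With the ependymal score as a covariate, a fit added after seeing the data, the value of Cd24a was -0.20 (SE 0.277). Sox4 was nearly level at 0.01 (SE 0.118), with an interval (95%) of -0.23 to 0.25, and Dcx at -0.08 (SE 0.197), with one of -0.48 to 0.33. Sox11 stood at -0.28 on the log2 scale (SE 0.169, adjusted p = 0.989). Neurod1 and Eomes had values of 0.59 (SE 0.764) and 0.61 (SE 0.759), which their SEs exceeded.

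The 2 diet effects were also compared with each other. The difference (effect of the one-year KD less that of the one-week KD) had its smallest p among the members in Cd24a, at -1.26 (SE 0.464, unadjusted p = 0.0115, adjusted p = 1 in edgeR). None of the 10 members was called (0, against 0% of all genes). The group means of Cd24a were 7.55 ± 2.74 (SD, n = 5) and 11.6 ± 3.87 CPM (SD, n = 7) at 12 months and 11.6 ± 6.05 and 7.38 ± 3.79 CPM (SD, n = 8 each) at 26 months, CD before KD. Of the 19 hindbrain markers, 0 stood at 0 counts in every brain, and their summed level took the same course, with medians of 9.69, 126, 101 and 28.2 CPM and ranges of 1.46 to 138, 4.23 to 371, 4.06 to 232 and 4.99 to 170 CPM. Of 16 tested, all had a difference below 0, and 0 were called. The 12 blood genes also took this course, with median sums of 101, 143, 180 and 121 CPM and ranges of 80.6 to 135, 109 to 225, 98.4 to 385 and 45.7 to 183 CPM. Of the 8 tested, all had a difference below 0 (median -1.40), 7 with an unadjusted p under 0.05 (against 4.52% of all genes) and 0 called. The part of blood in the Cd24a difference was not tested. With the scores of 4 brain regions as covariates, the hindbrain among them, the difference of Cd24a was -0.58 (SE 0.4) and its one-year effect -0.36 (SE 0.228). With the ependymal score the difference was -1.02 (SE 0.394). Within the libraries high in Gabra6 the difference was -1.68 (SE 0.51) and within those low in it -0.78 (SE 0.741). Of the 50-base words of Cd24a, 3.9% also occur in the predicted gene Gm6212.

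The genes were also compared with each other and with all others across libraries. Dlx1 and Dlx2 ran closely together after subtraction of group means, with Pearson r = 0.90 among the 15 libraries high in Gabra6 and 0.73 among the 13 low in it. Sox4 and Sox11, relatives with one exon each, had r = 0.51 and 0.29. The genes most like each member over the 28 brains, picked as the highest of all genes and thus given without a p, differed from member to member. Dlx1 was most like Dlx6os1, an antisense transcript of other Dlx genes (r = 0.96 in the high set and 0.87 in the low set), and Dlx2 was most like Fndc3b (0.89 and 0.58), followed by Lhx6, a transcription factor of interneurons (0.86 and 0.59). Neurod1 was most like Crtam (0.97 and 0.63), and Dcx most like Arnt2 (0.96 and 0.84). Igfbpl1 was most like Lrrc9 (0.81 and 0.86), with the cilia gene Cfap161 (0.86 and 0.52) at rank 3, and Sox4 was most like Lacc1 (0.73 and 0.79), followed by the microglial gene Fcrls (0.87 and 0.52) and by Ptn, a growth factor of glia and vessels (0.77 and 0.73). Draxin was most like Slc5a11, Eomes most like Plekhg4, Sox11 most like Shisa9, and Cd24a most like Asap3. In a bulk brain the points share tissue makeup and depth.

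The wider neurogenic lineage was followed in 5 lists that hold none of the 10 genes. On the control diet 1 of 20 tested stem cell genes was higher with age and 0 lower, where 1% of all genes were higher and 0.258% lower, and the medians of the 5 lists lay between -0.08 and 0.16, against -0.002 over all genes. The stem cell gene was Gfap, the intermediate filament of astrocytes, at 132 ± 39 CPM (SD, n = 5) and 244 ± 44.1 CPM (SD, n = 8), which is 0.88 on the log2 scale (SE 0.211, adjusted p = 0.032 in edgeR). Gfap is also used by reactive astrocytes. Of 23 genes of cell division and 32 neuroblast genes, 0 were called, and of 17 genes of the dentate lineage 0 as well. Of 45 genes of niche signals, Bmp4, a signal that keeps stem cells quiet and is also made by young oligodendrocytes, was lower at -1.07 (SE 0.222, adjusted p = 0.01). Tgfb1, a cytokine of microglia and vessels, was higher at 0.48 (SE 0.12, adjusted p = 0.0397).

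On the KDs the aged brains had 3 lower genes in these lists (1 of 20 stem cell, 1 of 32 neuroblast and 1 of 45 niche genes) and 0 higher, against 0.181% and 0.562% of all genes. Of the 45 niche genes 12 had an unadjusted p under 0.05 in edgeR, against 8.75% of all genes. The other lists had 3 of 20 (stem cell), 2 of 23 (division), 5 of 32 (neuroblast) and 0 of 17 (dentate). Cxcl12, a chemokine that guides neuroblasts and is made by vessels and meninges, stood at -0.53 on the log2 scale (SE 0.0982, adjusted p = 0.00515 in edgeR). Its means were 52.5 ± 10 and 74.4 ± 6.51 CPM at 12 months (SD, n = 5 and 7) and 55.3 ± 7.65 and 51.6 ± 6.48 CPM at 26 months (SD, n = 8 each), CD before KD. Its value for the one-week KD was 0.50 (SE 0.112, adjusted p = 1). The growth factor receptor gene Egfr stood at -0.32 on the log2 scale (SE 0.0705, adjusted p = 0.0255), and Foxc1, a transcription factor of the meninges and of pericytes that stood in the neuroblast list, one of -0.65 (SE 0.126, adjusted p = 0.00778). On CD, Egfr had a value of -0.25 (adjusted p = 0.12) and Foxc1 one of -0.48 (adjusted p = 0.0885). For the one-week KD, the one-year KD and their difference, 0 genes of the 5 lists were called by edgeR. Of the 45 niche genes, 4, 3 and 6 had an unadjusted p under 0.05 in these comparisons, against 2.65%, 4.52% and 4.52% of all genes. No other list had more than 2 such genes in any of them.

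**Figure D5:**
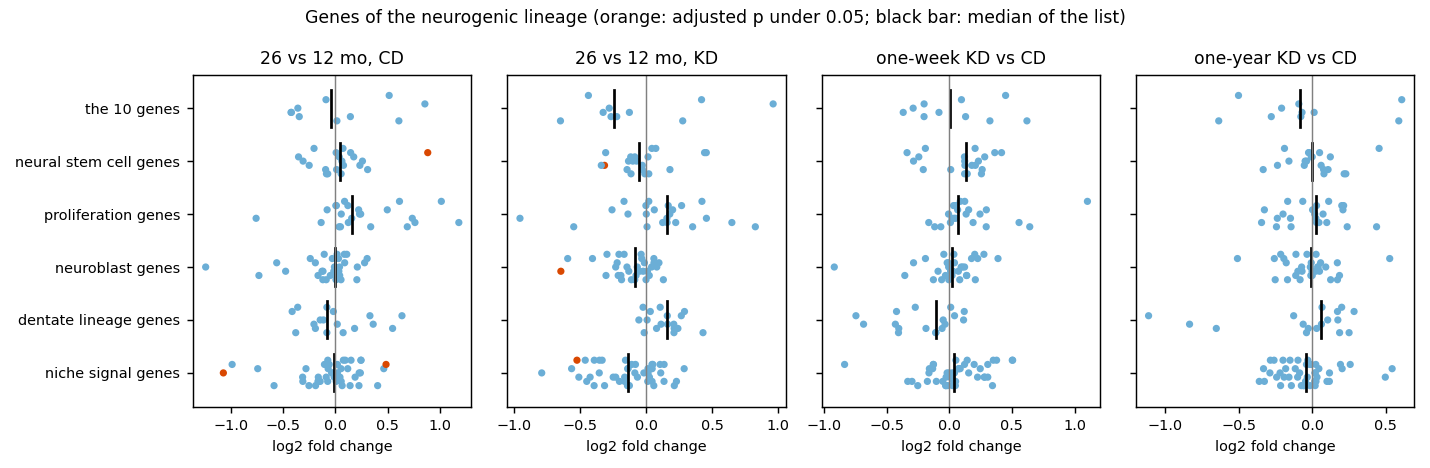
Each point is 1 gene of a list (rows) with its log2 fold change (x axis), 1 panel per comparison; orange points passed an adjusted p of 0.05 and black bars are medians. Orange points stand in the panels of age only, 3 on CD and 3 on the KDs, and the row of the 10 genes holds none.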

How the data were processed

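Per the labels, libraries were made from total RNA with the KAPA RNA HyperPrep and QIAseq FastSelect RNA Removal kits. Reads were trimmed (Trimmomatic) and mapped to GRCm38 (STAR), and the authors deposited raw counts per gene. The paper names RSEM for the counts, whereas the deposited counts carry the name of STAR, so the tool that counted is not certain. Versions and the strand setting are not given in the sources used here. The table held whole numbers for 54446 identifiers in 44 libraries, and 54409 had a symbol in the annotation of the same build, GENCODE vM21. Only the 28 brains entered the fits. Counts were filtered with filterByExpr (at least 10 counts), scaled by TMM and tested with the quasi-likelihood F test of edgeR 4.0.16 in R 4.3.3, in 1 fit of 4 groups with 5 contrasts, with Benjamini-Hochberg adjustment over 22079 genes and a threshold of 0.05. The SE is the log2 fold change divided by the root of F. CPM values use TMM-scaled library sizes. Replicates are separate libraries, and p-values measure the spread between them.

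The genes, gene lists and tests were chosen with earlier results of these data known. Named genes outside the set are, for each lineage list, the 3 smallest p for age on CD and the smallest in each other comparison, at most 2 of each marker list, and the 3 genes most alike each member by Pearson r of log2 CPM (prior count 2). Alternatives were DESeq2 1.42.0, limma 3.58.1 with quality weights, RLE, total counts, other filters, robust dispersion, the groups compared alone, covariates, a replicate block and each library left out. The steps were tested on simulated data. Tables and figures used Python 3.11.15, scipy 1.17.1 and matplotlib 3.10.9.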

Additional observations from a re-analysis of the deposited data

Results flagged for a closer look

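In groups of 5 to 8 brains, 3 of 40 combinations of a gene and a group held a library that stood apart from the rest by Dixon's test, which flags about 1 in 20 by chance. Igfbpl1 stood at 2.51 CPM and Eomes at 11.1 CPM in the one-week KD brain of replicate 10, and Neurod1 at 239 CPM in the 26-month CD brain of replicate 5. The same library of replicate 10 thus held both of the first values, and Gabra6 stood at 178 CPM in it and at 225 CPM in the 26-month CD brain of replicate 5.

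The 16 livers of 26 months, which no comparison used, held counts of all 10 genes. Above 3 counts were Sox4 and Cd24a in 16 livers, Eomes in 14, Dcx and Draxin in 9, Sox11 in 8, Dlx1 in 7, Igfbpl1 and Dlx2 in 6 and Neurod1 in 5. In the 6 livers with Gm10800 above 1% of the counts (1.23% to 2.39%) Dcx had 7 to 32 counts, Sox11 10 to 34, Igfbpl1 4 to 17 and Neurod1 2 to 9. In the other 10 livers (at most 0.0058%) these had 0 to 11, 0 to 13, 0 to 1 and 0 to 4 counts. Cd24a was the reverse, with a median of 38.5 counts in the 6 and 274.5 in the 10. Sox4 (medians 19 and 49.5) and Eomes (17 and 32.5) were so as well. These are raw counts, not scaled for depth. The part of Gm10800 in this was not tested.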

How the results depend on the processing

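By edgeR no member passed the threshold in any comparison, and with 1 library left out in turn the count stayed at 0. Of 1621 refitted values of members, 123 changed sign and 2 were called, both Sox4 for age on CD, so that 1 member was called with limma's quality weights and 1 with the granule score. The direction of Sox4 for age was the same in all alternatives. Genes called for age on CD numbered 278 and with DESeq2 844, with at least 10 counts in every library 175, with only the groups compared 121, with the receptor genes 174, with the granule score 453, within the libraries high in Gabra6 54 and low in it 14. For age on the KDs 164 became 1507 with DESeq2, 2057 without a filter, 78 with at least 10 counts, 96 with only the groups compared, 66 with the receptor genes, 334 with 4 region scores, 248 with the granule score, 34 and 18 within the sets high and low in Gabra6. For the one-week KD 1 gene became 0 with total counts alone, no filter, 4 region scores, the choroid plexus score and the set low in Gabra6, and for the difference 0 became 2 in the set high in Gabra6. Without 1 library the counts ran from 147 to 309 for age on CD (147 to 157 without 12-month CD replicate 1, 4, 7 or 16), 93 to 199 for age on the KDs (93 to 105 without one-week KD replicate 5, 10, 14 or 17 or one-year KD replicate 12 or 13), 0 to 1 for the one-week KD, 0 to 1 for the difference (1 without 26-month CD replicate 3) and 0 to 0 for the one-year KD. The 1 gene of the one-week KD was lost without 12-month CD replicate 1, 4, 13 or 16 or without one-week KD replicate 2, 5, 8, 10, 14 or 17. Smaller sets of libraries leave fewer samples, and for the other changes the cause was not tested.

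The replicate numbers did not pair the samples: deviations of same-numbered brains correlated at 0.19, -0.23 and -0.08 on CD and at -0.39, 0.20 and 0.47 on the KDs. With the replicate block on the shared numbers, 15 genes were called for age on CD and 0 for age on the KDs, with 0 members in both.

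Signs of uncalled members that changed, as log2 fold changes, were as follows. With the quality weights of limma they were for age on CD Eomes 0.29, for the one-year KD Dcx 0.067, Eomes -0.30, Dlx1 0.13, Dlx2 0.23, Neurod1 -0.071, for the difference of the diet effects Eomes -0.32, Neurod1 -0.75, for age on the KDs Eomes -0.028, Dlx1 0.066, Neurod1 -0.52. With total counts alone they were for the one-year KD Sox4 -0.0048. With no filter on low counts they were for age on CD Neurod1 -0.037. With the receptor genes they were for age on CD Neurod1 -0.54, for the one-year KD Dlx1 0.013, for the difference of the diet effects Draxin -0.13, for age on the KDs Eomes -0.53, Dlx1 0.23, Dlx2 0.062, Neurod1 -0.37. With 4 region scores they were for age on CD Eomes 0.29, for the one-week KD Sox4 0.0089, Eomes -0.43, for the one-year KD Sox4 -0.028, Draxin 0.10, for the difference of the diet effects Sox4 -0.037, Neurod1 -0.071. With the granule score they were for the one-week KD Eomes -0.84, Neurod1 -0.016, for the one-year KD Dlx1 0.010. With the granule score and receptor genes they were for age on CD Neurod1 -0.20, for the one-week KD Eomes -0.73, for the one-year KD Dcx 0.012, Eomes -0.024, Dlx1 0.082, Dlx2 0.0038, Neurod1 -0.0034, for the difference of the diet effects Draxin -0.12, Neurod1 -0.024, for age on the KDs Dlx1 0.086, Neurod1 -0.22. With the ependymal score they were for the one-year KD Sox4 -0.012, Igfbpl1 0.43, Draxin 0.14, Dlx1 0.036, for the difference of the diet effects Neurod1 -0.20, for age on the KDs Igfbpl1 0.0013. With the choroid plexus score they were for age on CD Eomes 0.16, Neurod1 -0.12, for the one-year KD Dlx1 0.024. With only libraries high in Gabra6 they were for age on CD Eomes 0.59, for the one-year KD Sox4 -0.072, Dlx1 0.022, Dlx2 0.22, for the difference of the diet effects Eomes -0.037. With only libraries low in Gabra6 they were for the one-week KD Sox4 0.083, Igfbpl1 -0.55, Eomes -2.74, for the one-year KD Draxin 0.14, for the difference of the diet effects Dcx -0.012, Igfbpl1 0.19, Neurod1 -0.15, for age on the KDs Igfbpl1 0.32, Neurod1 -0.087. With the replicate block they were for age on CD Dlx1 0.22, Dlx2 0.30, Neurod1 -1.70, for age on the KDs Neurod1 -0.097. Ranges over the fits without 1 library that crossed 0 were for age on CD Eomes -0.39 to 0.35, Neurod1 -0.51 to 0.58, for the difference of the diet effects Neurod1 -0.30 to 0.79, Draxin -0.10 to 0.41, Dlx2 -0.19 to 0.23, Eomes -0.098 to 1.28, for the one-week KD Eomes -0.67 to 0.54, Draxin -0.50 to 0.0076, Igfbpl1 -0.012 to 0.74, for age on the KDs Igfbpl1 -0.71 to 0.023, Neurod1 -0.093 to 0.49, Eomes -0.18 to 1.19, Dlx1 -0.26 to 0.0079, for the one-year KD Sox4 -0.038 to 0.071, Dcx -0.19 to 0.037, Dlx1 -0.21 to 0.065, Draxin -0.28 to 0.084. Fits with the granule, ependymal and choroid plexus scores and within the sets by Gabra6 were chosen after seeing the data. Depth limited Igfbpl1 and Draxin most, at 0 to 26 and 0 to 16 counts a library. Requiring 10 counts throughout removed them, Eomes and Dlx2, so that it gave no value for these 4.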
